A study of Mus musculus with 16 samples.

Results

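The Hox cluster genes of mouse embryonic stem cells were followed through a time course of Erk stimulation. The members were all genes whose symbol is Hox followed by the cluster letter a, b, c or d and a paralog number, which gave 39 of the 20972 genes with a named probe on the array: 11 in the Hoxa cluster, 10 in Hoxb, 9 in Hoxc and 9 in Hoxd. Of these, 16 were tested, because in 1 group or more both arrays gave their probe a signal well above background, as was the case for 15660 genes in all.

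Hox genes encode homeodomain transcription factors that give cells of the embryo their position along the head-to-tail axis. They lie in chromosomal clusters, and as a rule the genes with low paralog numbers are switched on earlier and further forward than those with high numbers. In undifferentiated embryonic stem cells the clusters are known to be held largely silent by Polycomb proteins, while retinoic acid, Fgf and Wnt signals and the caudal (Cdx) factors are known to activate them in the embryo.

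The cells were E14tg2a embryonic stem cells, grown with serum and LIF, that carried a constitutively active c-Raf fused so that tamoxifen switches it on. Each of the 8 groups had 2 one-colour Agilent arrays. In the groups 30m, 1h, 2h, 4h, 8h and 24h the cells had 24 h of 250 nM PD173074, an inhibitor of FGF receptors, and then 250 nM 4-hydroxytamoxifen (4OHT) for the time named. The 0h group had PD173074 and no 4OHT, and the DMSO group had DMSO only, so that 0h and DMSO differ in the inhibitor. All groups share the fusion protein; the promoter that drives it and the number of clones are not given in the sources used here, nor is it said whether the 2 samples of a group were separate cultures, so that the spread between them may be technical. No cells without the fusion that had received 4OHT are among the samples used here. No group had the inhibitor without 4OHT for longer than the 24 h of 0h, so that 4OHT and time cannot be told apart. The 24h and DMSO groups differ in both the inhibitor and 4OHT.

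For 8 of the 16 arrays the record that ties a scanner file to a sample and the heading of the column that holds the same values in the authors' value table name different samples. The values of each array matched 1 column of that table at 100% of probes, and at no more than 4.99% with any other, within a tolerance of 0.6%. The headings were followed, and all results below depend on that choice. Under the headings, replicate 1 of every group was on slide 1 and replicate 2 on slide 2. Grouping the arrays by file instead gave 341 called genes at 24h against 0h, where the headings gave 3718, and called none of the 5 Hox genes that the headings did. On slide 1, 54.9% to 59.9% of an array's spots were well above background; the arrays of slide 2 had 61.4% to 67.2%. Levels are log2 signals minus the 75th percentile of their array, so a value of 0 is the signal of that percentile. Levels of different genes come from different probes and were not compared with each other. The known Erk target Egr1 stood 5.38 ± 0.57 (SE) higher on the log2 scale at 2h than at 0h (adjusted p = 0.00793), and all 12 embryonic stem cell markers were above background on both arrays of all 8 groups.

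Most Hox genes gave little or no signal. A total of 5 members, among them Hoxa4, Hoxa6, Hoxa7 and Hoxb6, were well above background on all 16 arrays, which is 12.8% of the members, against 63.7% of all genes. On no array were 15 members above background (38.5%, against 17.3% of all genes). These were Hoxa2, Hoxa5, Hoxa10, Hoxa11, Hoxb1, Hoxb2, Hoxb4, Hoxb5, Hoxb8, Hoxc9, Hoxc11, Hoxd3, Hoxd8, Hoxd9 and Hoxd12, with levels between -7.59 and -4.78. Between these extremes lay 19 members, of which 11 were tested and 8 were not.

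The Hoxa cluster held 4 of the 5 members seen on all arrays, and Hoxb held the other; no member of Hoxc or Hoxd was seen on every array. By paralog number, 2 of the 12 members of groups 1 to 4, 3 of the 11 of groups 5 to 8 and 0 of the 16 of groups 9 to 13 were on all arrays. The count for groups 9 to 13 depends on the probe: the second probe of Hoxa9, a gene of the trunk, was above background on all 16 arrays at -4.06 to -3.26, while the brighter probe used here missed 1 array of the 30m group. Counting any probe of a gene gave 6 members on all arrays.

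The number of Hox genes above background on both arrays of a group was 10 in DMSO, 13 at 0h, 12 at 30m, 12 at 1h, 12 at 2h, 12 at 4h, 10 at 8h and 8 at 24h. On slide 1 it lay between 8 and 13 per array, and on slide 2 between 14 and 19. The 24h array had the lowest count of slide 1, and the DMSO, 1h and 24h arrays shared that of slide 2. The 24h array of slide 1 was also the lowest over all genes, with 68.4% above background where the other 15 arrays had 69.1% to 77.1%, and its dimmest probe well above background had a signal of 27.7, against 14.7 to 20.6 on the others. The part of this in its Hox count was not tested.

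**Figure D1:**
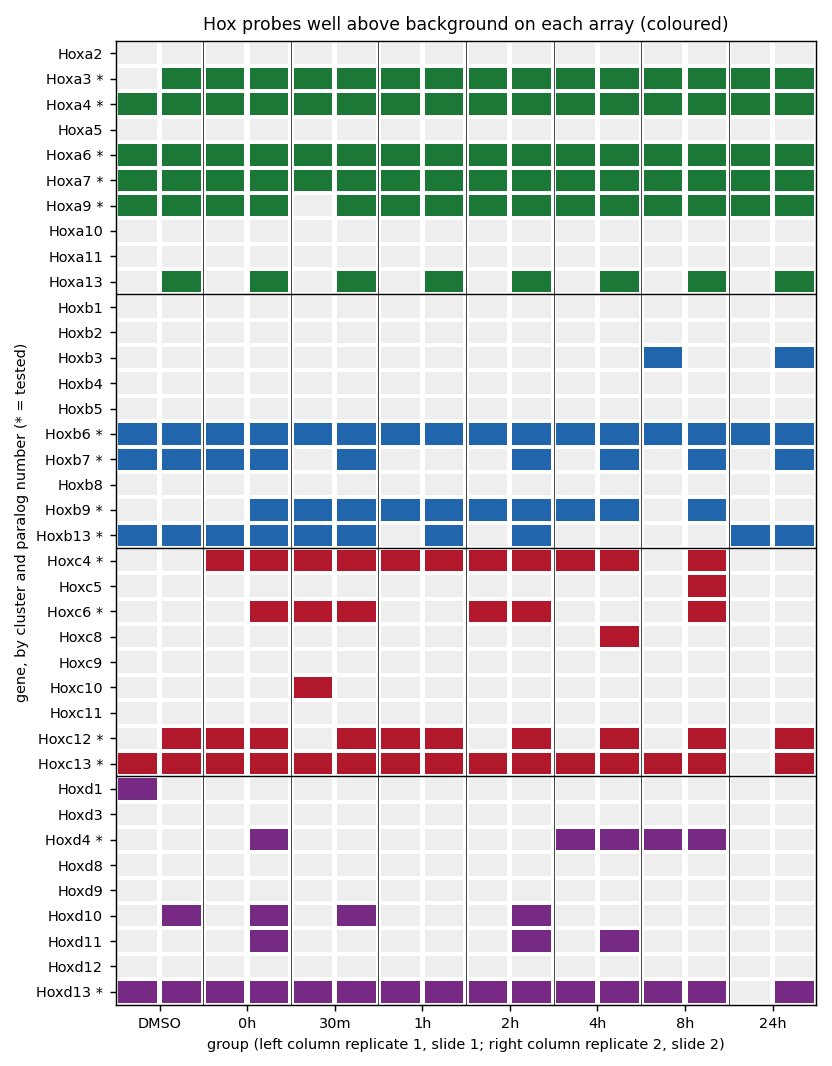
Each row is a Hox gene (38 of the 39 members), by cluster and paralog number, and each pair of columns is a group, with replicate 1 (slide 1) left and replicate 2 (slide 2) right. A coloured cell marks a probe well above background; 4 of the genes drawn are coloured on all 16 arrays and 15 on none, and Hoxa13 is coloured on the 8 arrays of slide 2 only.

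After 24 h of stimulation, against 0h, 5 of the 16 tested Hox genes were called (limma, Benjamini-Hochberg adjusted p under 0.05), where 23.7% of all genes tested were called. Among them, Hoxa7, Hoxb9, Hoxc4 and Hoxc13 fell, where 13% of all genes did. The median change of the 16 was -0.26 on the log2 scale, and that of all tested genes -0.01. These are bulk samples, in which fewer cells of a type and less RNA per cell cannot be told apart. A gene seen in only some groups passed the filter through the groups where it is high, so that the direction of its change is partly set by the filter; this holds for Hoxa3, Hoxb9, Hoxb13, Hoxc4, Hoxc13, Hoxd4 and Hoxd13.

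Hoxa7, a gene of thoracic identity, had levels of -3.53 and -3.49 at 24h, against -2.69 and -2.80 at 0h. The 24h arrays were the 2 lowest of the 16, and its spread within groups (pooled SD 0.08) was small beside the median of 0.24 over all tested genes. It fell by 0.76 ± 0.12 on the log2 scale, a 1.70-fold difference (adjusted p = 0.00161), with -0.83 within slide 1 and -0.69 within slide 2. With arrays centred on their medians the change was -0.85 and missed the threshold (adjusted p = 0.0762). Against 8h, with -2.85 and -2.89, it fell by 0.64 ± 0.12 (adjusted p = 0.00978), and against DMSO, with -3.00 and -3.13, by 0.44 ± 0.12 (adjusted p = 0.0411).

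Hoxc4, which acts in the neck and upper thorax, had levels of -6.64 and -5.11 at 24h, both not well above background, against -3.53 and -3.05 at 0h. It was above background on both arrays of all groups between 0h and 4h, on 1 array at 8h, and on no array at 24h or in DMSO. The fitted change at 24h against 0h was -2.59 ± 0.47 (adjusted p = 0.00339), with -3.11 within slide 1 and -2.07 within slide 2. Set against the lowest signal among detected probes on the 24h arrays, Hoxc4 was at least 2.68-fold lower at 24h.

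Hoxc13, a regulator of hair and nail keratins, had levels of -6.46 and -3.96 at 24h, against -1.41 and -1.89 at 0h. Only the second 24h array was above background, and both lay below both 0h arrays. The change was -3.56 ± 0.71 (adjusted p = 0.00542), with -5.05 within slide 1 and -2.07 within slide 2, so that its size differed widely between the slides. Without replicate 1 of 24h it was -2.31 (adjusted p = 0.0345). From 0h on, its mean level was -1.65 at 0h, -1.81 at 30m, -1.76 at 1h, -2.07 at 2h, -2.81 at 4h, -3.75 at 8h and -5.21 at 24h, and it was -3.00 in DMSO.

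Hoxb9, a gene of thoracic and rib identity, had levels of -6.35 and -6.91 at 24h, both not well above background, against -5.56 and -3.61 at 0h, of which 1 was above background. The fitted change of -2.05 ± 0.63 passed the test (adjusted p = 0.0393), while the bound gave Hoxb9 only at least 1.09-fold lower at 24h. The change was -0.80 within slide 1 and -3.30 within slide 2, and the call was kept in 9 of 16 fits that left out 1 array, with changes of -3.03 to -1.07, the smallest without replicate 2 of 0h. Between 30m and 4h it was above background on both arrays of each group, at levels from -4.63 to -2.99.

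The promoter windows of Hoxa7 and Hoxc4 are shown because both genes fell at 24h while caudal genes, whose products bind sites such as TTTATG, rose. Both have a window in the RefSeq table (GRCm38.p6, 250 bases before to 50 after the start). Hoxb9 and Hoxc13, which also fell at 24h, have no window there and could not be searched. Capitals mark TTTATG on either strand. The Hoxa7 window lies at chr6:52218524-52218823 on the minus strand and the Hoxc4 window at chr15:103034145-103034444 on the plus strand.
Hoxa7: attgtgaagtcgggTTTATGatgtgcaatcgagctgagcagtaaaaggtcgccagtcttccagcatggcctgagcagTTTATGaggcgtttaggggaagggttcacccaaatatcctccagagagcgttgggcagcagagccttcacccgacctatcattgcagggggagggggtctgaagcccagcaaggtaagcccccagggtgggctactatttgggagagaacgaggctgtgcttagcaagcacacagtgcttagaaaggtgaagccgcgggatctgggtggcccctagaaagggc
Hoxc4: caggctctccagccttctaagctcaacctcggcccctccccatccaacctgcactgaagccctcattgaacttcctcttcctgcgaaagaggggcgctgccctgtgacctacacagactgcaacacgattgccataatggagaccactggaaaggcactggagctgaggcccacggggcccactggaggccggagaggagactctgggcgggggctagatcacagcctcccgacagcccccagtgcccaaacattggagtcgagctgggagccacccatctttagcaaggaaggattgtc
The Hoxa7 window held TTTATG at 2 places, and the Hoxc4 window did not hold these letters. Of the 24 Hox windows, from 22 genes, 5 held the motif (20.8%), against 11.9% of all 32851 windows of the table; besides Hoxa7 these were windows of Hoxb8, Hoxd11, Hoxd3 and Hoxd4. The motif TGATTNAT, bound by Hox and Pbx proteins together, was in 2 Hox windows, those of Hoxa2 and Hoxd11, against 3.22% of all windows. GCGNGGGCG, the site of Egr factors, was in the windows of Hoxa13 and Hoxb8, against 5.55% of all windows. TGANTCA, the site of Fos and Jun, was in 1 window, of Hoxd11, against 7.81% of all windows. CCGGAAG, a site of ETS factors, was in 0 of the 24 Hox windows, against 8.86% of all windows. A direct repeat bound by retinoid receptors, DR5, was also in 0, against 0.00913%. Both strands were searched for each. These matches describe letters in the windows, not bound sites, and a link between the caudal genes and the Hox changes was not tested.

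Comparing 24h with 8h, 3 Hox genes were called, where 8.81% of all genes were; among them, Hoxb13 rose and Hoxa7 fell. Comparing 24h with DMSO, 3 were called, where 11.3% of all genes were; among them, Hoxa3 rose and Hoxa7 fell. Hoxa3, which acts in the neck, thymus and parathyroid, had levels of -3.50 and -4.06 at 24h, against -5.02 and -4.50 in DMSO. Its rise of 0.98 ± 0.28 (adjusted p = 0.0492) was at the edge of the threshold and was 1.53 within slide 1 and 0.44 within slide 2. Of 16 fits that left out 1 array, 3 kept the call of Hoxa3 and 4 that of Hoxa7 against DMSO. The comparisons with 0h, 8h and DMSO share the 24h arrays.

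The replicate number was also the slide, and a fit with it as a block is described with the earlier times below. At 24h against 0h it called 5 Hox genes, where 39.5% of all genes were called. At 24h against 8h it called 6, where 22.9% of all genes were, adding Hoxa3 (0.91 ± 0.28, adjusted p = 0.0448), Hoxc4 (-1.27 ± 0.39, adjusted p = 0.0432) and Hoxd4 (-1.37 ± 0.33, adjusted p = 0.0165); without the block these had adjusted p = 0.0737, 0.132 and 0.102. Neither Hoxc4 nor Hoxd4 was well above background on a 24h array, and the bounds were at least 1.07-fold lower for Hoxc4, seen on 1 array at 8h, and at least 2.15-fold lower for Hoxd4. Without replicate 1 of 24h the change of Hoxc4 was -0.51, without replicate 2 of 24h -2.03 and without replicate 2 of 8h -0.72; that of Hoxd4 was -0.75 without replicate 2 of 24h. At 24h against DMSO it called 5, where 26% of all genes were, adding Hoxb13 (-1.28 ± 0.34, adjusted p = 0.0228, against 0.328 without) and Hoxc13 (-2.21 ± 0.65, adjusted p = 0.0351, against 0.075 without). Without replicate 1 of 24h these were -0.69 for Hoxb13 and -0.96 for Hoxc13, which was -3.46 without replicate 2 of 24h.

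Hoxb13, a gene of the tail and the prostate, had its lowest levels in the middle of the time course. Its levels were -1.91 and -1.92 in DMSO, -4.08 and -2.68 at 0h, -3.95 and -2.61 at 30m, -4.84 and -3.25 at 1h, -4.85 and -4.07 at 2h, -6.78 and -6.01 at 4h, -6.80 and -5.25 at 8h, and -3.79 and -2.60 at 24h. It was above background on both arrays in DMSO and at 0h, 30m and 24h, and on neither at 4h and 8h. Against 8h the 24h arrays were higher by 2.83 ± 0.75 (adjusted p = 0.0438), and the bound gave at least 3.63-fold. The difference was 3.01 within slide 1 and 2.65 within slide 2, and the call was kept in 7 of 16 fits that left out 1 array (2.06 to 3.61).

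At 4h and 8h against 0h, no Hox gene was called by limma, where 3.18% of all genes were called at 4h and 6.74% at 8h; without adjustment, 3 and 4 Hox genes had p under 0.05. The 2 arrays of a group lie on different slides and the arrays of a slide deviated together, so the fit was repeated with the slide, which is also the replicate number, as a block. With the block, 2 Hox genes were called at 4h, where 16% of all genes were. Hoxb13 was lower, by -3.02 ± 0.34 (adjusted p = 0.00133 with the block, 0.0604 without) and at least 3.90-fold. Hoxd13, a gene of the digits and the genital tubercle, had levels of -2.10 and -3.13 at 4h, against -3.82 and -4.15 at 0h. It was higher at 4h by 1.37 ± 0.29 (adjusted p = 0.0166 with the block, 0.0999 without), or by 0.85 without replicate 1 of 4h.

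At 8h the block gave 5 Hox genes, where 21% of all genes were called. Hoxb13 was lower by -2.65 ± 0.34 (adjusted p = 0.00126 with the block, 0.0635 without), at least 3.21-fold. Hoxc4, with -5.16 and -4.05 at 8h, against -3.53 and -3.05 at 0h, differed by -1.32 ± 0.39 (adjusted p = 0.04 with the block, 0.129 without). Hoxc13, with -4.61 and -2.89 at 8h, against -1.41 and -1.89 at 0h, differed by -2.10 ± 0.65 (adjusted p = 0.0494 with the block, 0.111 without). Both 8h arrays of each gene lay below both 0h arrays. Hoxa6 differed by -0.52 ± 0.15 (adjusted p = 0.0403 with the block, 0.77 without). Hoxd4, a gene of the hindbrain and neck, had levels of -3.15 and -4.02 at 8h, against -4.85 and -4.49 at 0h, a difference of 1.08 ± 0.33 (adjusted p = 0.0442 with the block, 0.202 without). Without replicate 1 of 8h the differences were -0.77 for Hoxc4, -1.24 for Hoxc13 and 0.64 for Hoxd4. That of Hoxa6 was 0.0594 without replicate 1 of 8h, -1.10 without replicate 2 of 8h, -0.94 without replicate 1 of 0h and -0.11 without replicate 2 of 0h.

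At 30m, 1h and 2h against 0h, limma called no Hox gene with or without the block. Without adjustment, 0 Hox genes had p under 0.05 at these times, or 2 at 2h with the block. Few other genes changed this early: 0% of all genes were called at 30m, 0% at 1h and 0.115% at 2h, and with the block 0% at 30m, 0.0192% at 1h and 0.485% at 2h.

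The inhibitor comparison, 0h against DMSO, gave no called Hox gene by limma, where 3.5% of all genes were called; 3 Hox genes had an unadjusted p under 0.05. With the block, 3 were called, where 15% of all genes were. Hoxc4 had levels of -3.53 and -3.05 at 0h, against -4.94 and -5.25 in DMSO, where neither DMSO array was well above background, and at 0h it was at least 3.07-fold higher (adjusted p = 0.0152 with the block, 0.0674 without). Hoxa7 was higher at 0h by 0.32 ± 0.09 (adjusted p = 0.0352 with the block, 0.191 without). Hoxb13 was lower at 0h by -1.46 ± 0.34 (adjusted p = 0.0208 with the block, 0.354 without), or by -0.76 without replicate 1 of 0h.

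**Figure D2:**
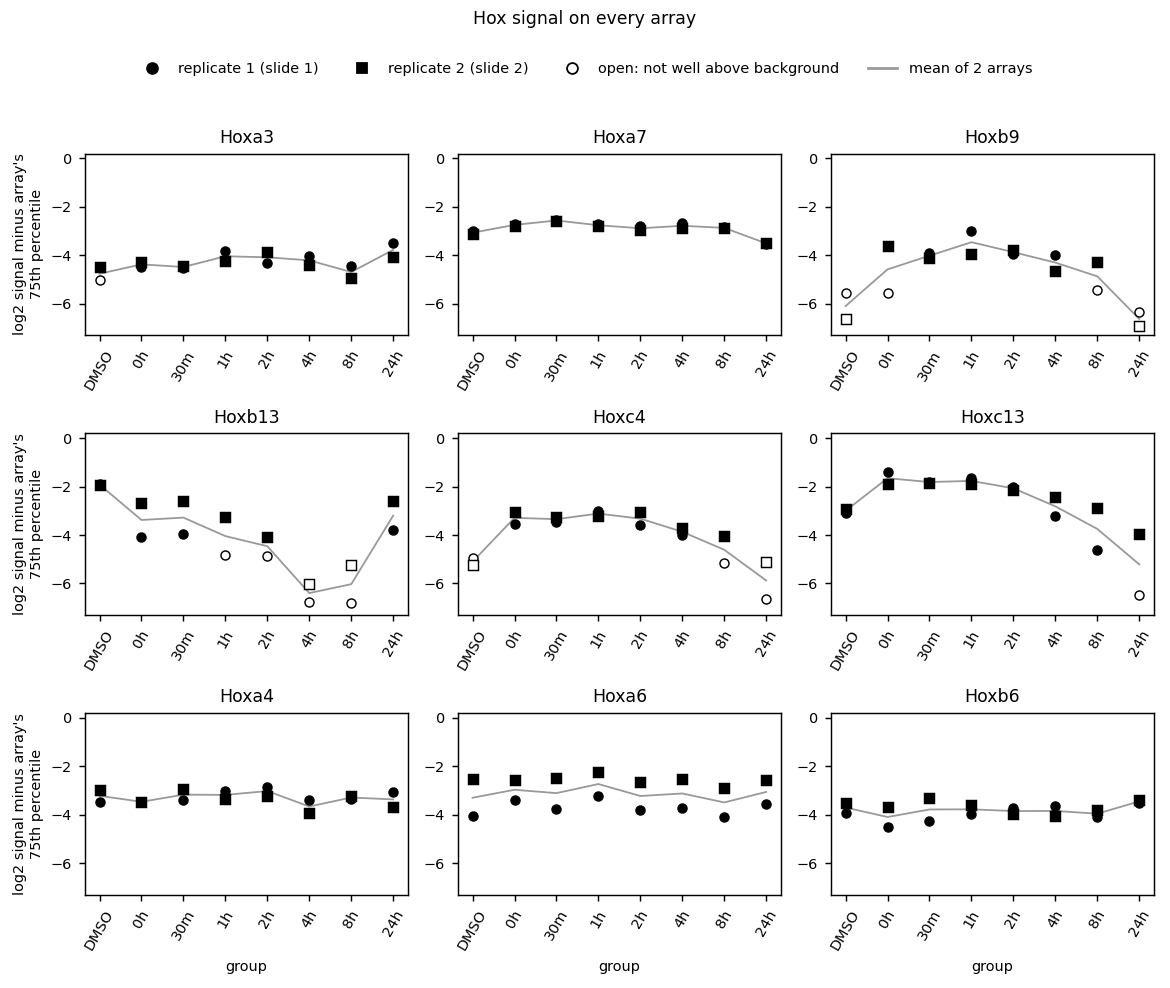
Levels (log2 signal minus the 75th percentile of the array) of 9 Hox genes on every array, with circles for replicate 1 (slide 1), squares for replicate 2 (slide 2), open symbols where the probe was not well above background, and a line through group means. Hoxa7 is lowest at 24h with closely paired arrays, Hoxb13 is lowest at 4h and 8h, Hoxc13 is lowest at 24h, and the squares of Hoxa6 lie above its circles in all 8 groups.

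**Figure D3:**
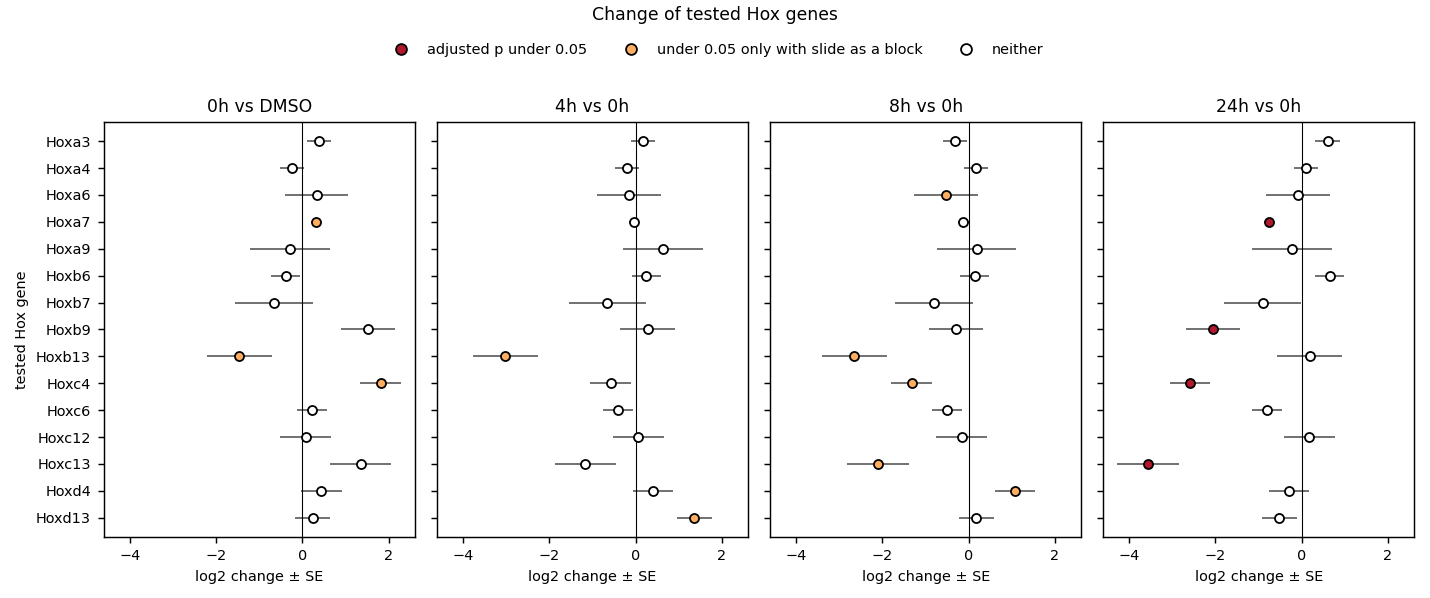
Change of 15 of the 16 tested Hox genes (log2, points) with its standard error (lines, fit without the block) for 0h against DMSO and for 4h, 8h and 24h against 0h. Filled red points mark adjusted p under 0.05, seen at 24h for Hoxa7, Hoxb9, Hoxc4 and Hoxc13, all left of 0; orange points passed only with the slide as a block.

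Tested once over all 8 groups with limma's moderated F test, 6 Hox genes differed, where 22.9% of all genes did, among them Hoxa7 (adjusted p = 0.00628), Hoxc4 (0.0102), Hoxb13 (0.0151), Hoxb9 (0.0299) and Hoxc13 (0.0319). With the block, 9 differed, where 49.2% of all genes did, among them Hoxa6, Hoxd4 and Hoxd13. Of the genes on all arrays, Hoxa4 had levels between -3.92 and -2.83 (adjusted p = 0.659) and Hoxb6 between -4.50 and -3.31 (adjusted p = 0.883), and neither passed in any of the 9 comparisons.

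Some Hox probes differed between the slides in the same direction in nearly every group. Hoxa6, which acts in the thorax, was higher on slide 2 than on slide 1 in all 8 groups, from -2.91 to -2.25 on slide 2, against -4.07 to -3.21 on slide 1, and a median gap of 1.18 on the log2 scale. Among the tested members the median gap passed 1 for Hoxa6, Hoxa9 (1.53) and Hoxb13 (1.27), which is 3 of 16, against 3.91% of all tested genes. Hoxa13, a gene of the digits and genital tract, was above background on all 8 arrays of slide 2 and on none of slide 1, with a median gap of 1.84, and so was never tested. For Hoxa9 the brighter probe ranged from -4.76 to -2.17 over the 16 arrays, and the second probe from -4.06 to -3.26. What differs between the slides was not tested.

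**Figure D4:**
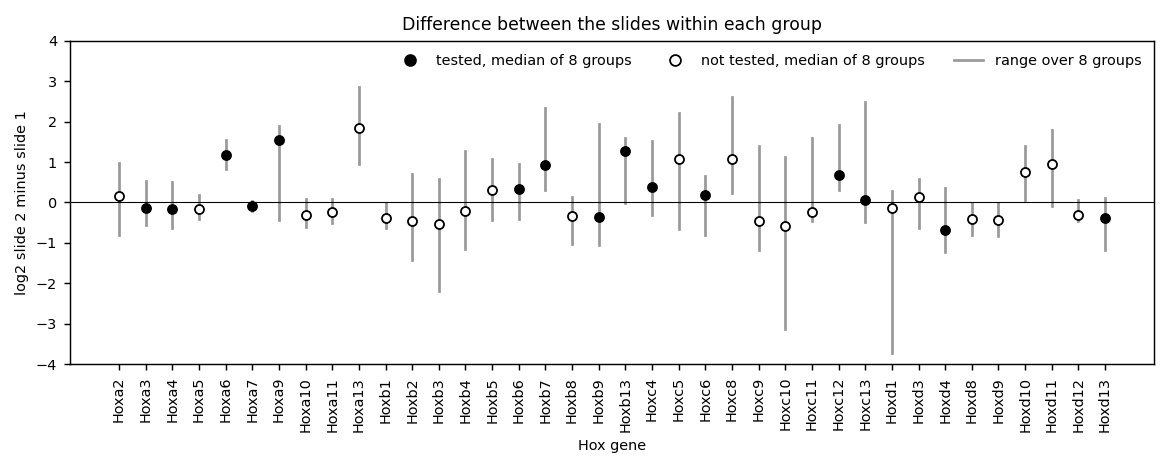
Difference between slide 2 and slide 1 within a group (log2) for 38 of the 39 Hox genes, as the median over 8 groups (points, filled where the gene was tested) with the range over groups (lines). Hoxa6, Hoxa9, Hoxa13 and Hoxb13 have medians above 1, as do the untested Hoxc5 and Hoxc8, while Hoxa7 stays near 0.

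Among members too dim to test, Hoxd1 had a single detection, at -2.38 on replicate 1 of DMSO, while its other 15 arrays were at or below -4.94. Hoxb3 was detected on replicate 1 at 8h (-3.75) and on replicate 2 at 24h (-4.07). Hoxd10 was detected on 4 arrays and Hoxd11 on 3, all of slide 2. Hoxc5, Hoxc8 and Hoxc10 were each detected on 1 array. The 15 members never detected had a median difference of 0.57 between 24h and 0h, and all 3631 genes never detected had 0.57. Tested without the filter, Hoxb1 and Hoxb2 were also called as higher at 24h, at levels that were not well above background. Hoxb1, an early retinoic acid target, had -5.88 and -6.52 at 24h, against -7.03 and -7.48 at 0h.

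The TALE cofactors Pbx, Meis and Pknox bind DNA together with Hox proteins. Of 11 tested at 24h against 0h, 1 rose and 3 fell, where 23.7% of all genes were called in either direction. Meis1 rose by 3.17 ± 0.64 (adjusted p = 0.00542) and Pknox2 fell by 2.49 ± 0.51 (adjusted p = 0.00609). Meis2 fell by 1.32 ± 0.21 at 24h (adjusted p = 0.00159) after standing 1.04 ± 0.21 higher at 4h than at 0h (adjusted p = 0.0293). Pbx2 fell by 0.67 ± 0.16 (adjusted p = 0.0114).

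Of 5 tested caudal and ParaHox genes, which include known activators of Hox genes, 3 rose and 1 fell at 24h (all genes, 23.7% called). Cdx2 was not well above background at 0h and exceeded that group at least 33.5-fold at 4h (adjusted p = 0.00538), 30.5-fold at 8h (adjusted p = 0.00293) and 13.8-fold at 24h (adjusted p = 0.00184). Cdx1 was higher by 1.01 ± 0.15 at 8h (adjusted p = 0.00535) and by 2.43 ± 0.15 at 24h (adjusted p = 2.04e-05). Gsx1 was higher by 4.86 ± 0.66 at 24h (adjusted p = 0.000778), and Gsx2 was at least 3.18-fold lower (adjusted p = 0.00139).

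Of 31 tested Polycomb genes, 3 rose and 5 fell at 24h, a share near the 23.7% of all genes. Jarid2, a subunit that helps recruit the complex that methylates H3K27, rose by 1.48 ± 0.39 (adjusted p = 0.0198). Bmi1 fell by 1.36 ± 0.17 (adjusted p = 0.000455). Bmi1 was higher by 1.08 ± 0.17 at 0h than in DMSO (adjusted p = 0.0106). Of 16 tested Trithorax genes and H3K27 demethylases, which are known to oppose Polycomb, 0 rose and 2 fell at 24h (all genes, 23.7% called), Psip1 by 1.00 ± 0.29 (adjusted p = 0.0327) and Wdr5 by 0.76 ± 0.17 (adjusted p = 0.0105).

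Of 19 tested genes that neighbour the clusters, 1 rose and 4 fell at 24h, also near the 23.7% of all genes. Evx1, the homeobox gene next to Hoxa13, was higher by 3.83 ± 0.54 at 4h (adjusted p = 0.0101) and by 2.79 ± 0.54 at 8h (adjusted p = 0.0175) than at 0h. Its mean level at 24h was -2.75, against -2.81 at 0h, and its change from 8h to 24h was -2.73 ± 0.54 (adjusted p = 0.0129). Nfe2, which lies near the Hoxc cluster, was at least 4.13-fold lower at 24h (adjusted p = 0.000699). Calcoco2 fell by 4.67 ± 0.86 at 24h (adjusted p = 0.00365) and was higher by 4.28 ± 0.86 at 0h than in DMSO (adjusted p = 0.0281).

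Of 14 tested genes of retinoid signalling, 4 rose and 4 fell at 24h, where 23.7% of all genes were called. Aldh1a3, which makes retinoic acid, was not well above background at 0h and was higher at 24h by at least 184-fold (adjusted p = 1.11e-05). Cyp26a1, which degrades it, rose by 3.27 ± 0.56 (adjusted p = 0.00237). Aldh1a2, another enzyme of its synthesis, fell by 1.45 ± 0.13 (adjusted p = 0.000136), and Dhrs3, which reduces retinaldehyde, fell by 2.05 ± 0.27 (adjusted p = 0.000699). Of 14 tested regulators of the posterior axis, 4 rose and 2 fell (all genes, 23.7% called); Mesp1 was higher by at least 5.37-fold (adjusted p = 7.84e-05) and Fgf8 fell by 0.97 ± 0.24 (adjusted p = 0.0158). As with the Hox genes above, the filter partly set the direction of change for list genes seen in only some groups. These include Pknox2, Cdx2, Gsx1, Gsx2, Nfe2, Aldh1a3 and Mesp1. The lists of these groups were chosen with earlier results of the same arrays known.

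Summed signals of markers of other cell types, in linear units of the array's 75th percentile, also differed at 24h. In these linear sums, the differences for trophoblast, fibroblast and neural markers rested largely on 1 bright gene each. Counts of called markers and median log2 changes, which do not weigh a marker by its brightness, are given beside the sums. The sum of 8 trophoblast markers was 71.6 to 119.8 at 24h, against 27.7 to 48.7 at 0h, and without Krt18, a keratin, it was 12.5 to 17.1 at 24h, against 18.0 to 34.9 at 0h. Of the 7 tested, 4 rose and 0 fell (all genes, 23.7% called), with a median change of 1.30 on the log2 scale. Cdx2 is on this list, and Elf5 was above background on no array. The sum of 12 fibroblast markers was 14.4 to 15.3 at 24h, against 3.42 to 3.49 at 0h, of which the surface protein Thy1 alone gave 13.3 to 13.9 at 24h, against 2.66 to 2.74 at 0h. Without Thy1 it was 1.03 to 1.35 at 24h, against 0.686 to 0.832 at 0h. On both arrays at 24h were 5 of the 12, against 7 at 0h, with Lum, Postn, Fap and Twist2 on no array. Of the 8 tested, 2 rose and 0 fell (all genes, 23.7% called), with a median change of 0.48 on the log2 scale. The sum of 8 neural markers was 3.94 to 4.63 at 24h, against 10.6 to 14.5 at 0h, with Olig2 and Dbx1 on no array. Without the tubulin Tubb3 it was 2.02 to 3.71 at 24h, against 2.83 to 3.34 at 0h, so that the groups overlapped. Of the 5 tested, 0 rose and 2 fell (all genes, 23.7% called). Their median change was -1.08 on the log2 scale, with 4 of the 5 below 0. The sum of 6 markers of streak mesoderm was 0.668 to 0.743 at 24h, against 0.501 to 0.513 at 0h, with Mixl1 on no array. Without the brightest, Eomes, it was 0.452 to 0.477 at 24h, against 0.298 to 0.318 at 0h. Among the 5 tested, 1 rose and 0 fell (all genes, 23.7% called). Their median change was 0.27 on the log2 scale, with 5 of the 5 above 0. The sum without Eomes still held Mesp1, the only marker called, whose mean level was -2.91 at 24h, against -6.32 at 0h. The sum of the 12 embryonic stem cell markers was 708 to 746 at 24h, against 813 to 885 at 0h. Without the brightest, Dppa5a, it was 384 to 428 at 24h, against 471 to 589 at 0h. Of the 12, 1 rose and 5 fell, where 23.7% of all genes were called in either direction. Their median change was -0.37 on the log2 scale, where that of all tested genes was -0.01. The part of these shifts in the Hox changes was not tested.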

How the data were processed

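Total RNA was labelled and hybridised to one-colour Agilent arrays, 2 for each of 8 groups. The authors deposited Agilent Feature Extraction 11.0.1.1 scanner output (mm9 probe annotation, per the file headers), whose processed signal intensity is background-corrected, and a value table on a linear intensity scale with column medians of 27.3 to 44.7, from which only array identity was taken. The labels name Cy5, while the files hold the green channel. Of 55681 probes, 27656 had 1 gene name.

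Here, log2 intensity minus each array's 75th percentile was computed from the authors' deposited processed signals, spots of a probe were averaged after leaving out outlier spots (147 to 240 per array; 0 were saturated), and the probe with the highest mean was kept for each gene. A gene was tested where both arrays of some group had that probe well above background. limma 3.58.1 (R 4.3.3) fitted 1 mean per group over 16 arrays (8 residual degrees of freedom, 7 with the block), with Benjamini-Hochberg adjustment over 15660 genes and a threshold of 0.05. On simulated data with independent noise on each array, and so no slide effect, it recovered the size of known changes. "At least" folds set the brighter group's mean against, per array, the higher of the dim probe's own value and the lowest signal among probes well above background. The number of arrays limits the precision.

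The slide came from the file headers. Over 28 pairs of groups, the deviations of same-numbered arrays correlated at 0.329 to 0.659, so the number was taken to pair them. The alternatives were the block, the grouping by file, normexp, median and quantile scaling, filters, probe averaging, 2-group fits, a 2-fold rule and leaving out each array. The files hold no mean signal, so normexp (offset 50) used median signals, a departure from the plan. Values are given on all arrays for members called in a comparison or seen on all arrays; list genes are at most 6 a list by size among those called. Members and lists were chosen with earlier results of these data known. Some genes counted in these totals are not reported here by name.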

Additional observations from a re-analysis of the deposited data

How the results depend on the processing

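Precision rests on 2 arrays a group, and members not well above background have only a bound. Of 25 or fewer alternatives per named gene, 507 values in all kept their direction and side of the threshold. Most of these belong to comparisons that the fit without the block did not call and that stayed uncalled. Another 79 lost the call, which only comparisons called without the block could do, and 38 gained one. The other 8 turned their sign, in comparisons that were called only with the block. With arrays grouped by the attached files, Hoxb13 was 1.08 at 4h (adjusted p = 0.92), 1.498 at 8h and 0.45 at 24h against DMSO, Hoxd13 -0.68 at 4h, and at 8h Hoxa6 was 0.87, Hoxc4 0.12 and Hoxd4 -0.33; leaving out each array in turn gave Hoxa6 at 8h -1.10 to 0.0594. At 24h against 0h, Hoxa7 kept its call in 22 of 25, and Hoxc4 and Hoxc13 in 22 of 24 each; Hoxb9 kept it in 13 of 24, Hoxb13 at 24h against 8h in 11 of 24, and, at 24h against DMSO, Hoxa3 in 5 of 24 and Hoxa7 in 7 of 25.

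Numbers of called Hox genes moved as follows. With the replicate block (slide), they were 3 at 0h against DMSO, 2 at 4h, 5 at 8h, 6 at 24h against 8h and 5 at 24h against DMSO; the block changed no other count by over 1.5 times. With arrays grouped by the attached files they were 2 at 2h, 2 at 4h, 1 at 8h, 2 at 24h against 0h, 0 against 8h, 1 against DMSO and 3 in the F test, where the called genes were Hoxa6, Hoxa13 and Hoxc12. Median centring gave 1 at 0h against DMSO, 1 at 4h, 1 at 8h and 1 at 24h against DMSO, and it moved the median change of all genes to -0.10 at 2h and at 24h against 0h. Quantile normalization gave 1 at 4h, 1 at 8h and 1 at 24h against DMSO. Normexp gave 1 at 8h and 1 at 24h against 8h. Requiring detection on all arrays, which leaves 5 members to test, gave 2 at 24h against 0h and 2 in the F test. Testing without the filter gave 1 at 24h against DMSO, as did a 2-fold minimum. Fits of only the 2 groups gave 1 at 24h against 0h, 0 against 8h and 0 against DMSO. The weaker flag of a positive and significant signal put 13 members above background on all arrays.

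Leaving out each array in turn gave 0 to 1 at 0h against DMSO, 0 to 0 at 30m, 1h and 2h, 0 to 2 at 4h, 0 to 3 at 8h, 4 to 5 at 24h against 0h, 1 to 4 against 8h, 1 to 4 against DMSO and 4 to 7 in the F test; a lone array was assumed to vary like the other groups. At 0h against DMSO the count was 1 without either 8h or either 24h array. At 4h it was 1 without replicate 2 of 4h and 2 without either 8h array. At 8h it was 3 without replicate 2 of 8h and 1 without either 24h array. At 24h against 8h it was 1 without replicate 1 of 24h. At 24h against DMSO it was 1 without either array of DMSO, 0h, 30m, 1h or 2h, or replicate 1 of 24h. The causes were not tested.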
